A study of Mus musculus with 6 samples.

Results

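The genes described here take up long-chain fatty acids, carry them into mitochondria, oxidise them and control that pathway. They are 34 mouse genes listed by symbol for their roles in the pathway, with no threshold on their values, and matched to the Ensembl identifiers of a table of 49315 genes. All 34 had a single identifier, and 33 passed the filter on low counts, the exception being Ucp3. The libraries are 2 of tail-tip skin fibroblasts that received negative control lentiviral vectors (day 0), 2 of early cells that received CRISPR activation vectors (day 7) and 2 of late cells that received those vectors and were isolated as colonies (day 22). All were of wild-type genotype, and the labels name the SAM version of CRISPR activation, in which a Cas9 that does not cut brings activators to chosen promoters. Per the labels, early replicate 1 was early reprogrammed, early replicate 2 was partially reprogrammed, and the late cells were induced cardiac progenitors. The sources used here do not give the activated genes, the strain, age or sex of the mice, or whether the libraries of a group came from separate cultures. The p-values therefore describe the spread between the libraries, which may be technical.

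Fatty acid oxidation is the main fuel pathway of the adult heart muscle, while fetal heart cells and proliferating fibroblasts rely more on glucose. Lipoprotein lipase frees fatty acids at the vessel wall, Cd36 and the fatty acid transport proteins move them into the cell, and binding proteins carry them through the cytosol. Acyl-CoA synthetases activate them, the carnitine shuttle takes them across the inner mitochondrial membrane, and a cycle of dehydrogenation, hydration, a further oxidation and thiolysis shortens them. Electron transfer flavoprotein passes electrons from the dehydrogenases to the respiratory chain, and the nuclear receptor PPAR-alpha with the coactivators PGC-1alpha and PGC-1beta raises the transcription of many genes of the pathway.

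Total counts were 31414965 and 37445443 in the fibroblast libraries, 21273130 and 20469433 in the early ones, and 20172874 and 40122999 in the late ones. Values are CPM, counts divided by a library size that is scaled by TMM and multiplied to a common total, and 3 counts correspond to 0.0842 to 0.142 CPM. Such floors and the intervals given below cover counting error only. Early and late columns were assigned by their names, which are not the exact sample titles. If that reading were wrong, early and late values would change places. Late replicate 2 stood apart from the other libraries: transcripts of the mitochondrial genome took 10.3% of its counts, against 1.48% to 2.16% elsewhere. For that reason the late libraries are given apart throughout. Calls are those of edgeR's quasi-likelihood test over 16688 genes at a Benjamini-Hochberg adjusted p under 0.05. The sequenced cells were bulk cultures, so fewer cells of a type and less RNA per cell cannot be told apart.

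The promoter stretches shown here were picked by hand, for the reason given beside each. They come from RefSeq windows on GRCm38.p6, which were held for 28 of the 34 genes, with no window for Acaa2, Cpt1b, Decr1, Fabp4, Lpl and Ppargc1b. Hadha and Hadhb, the subunit genes of the mitochondrial trifunctional protein, are transcribed away from each other, and the 85 bases between their GENCODE starts (chr5:30155163-30155247, plus strand) lie upstream of both. Acsl1 and Acsl3 had higher values than both fibroblast libraries in every activated library; Acsl1 has RefSeq starts at different places, and the windows of an upstream and a downstream start are shown (chr8:46470977-46471036 and chr8:46490906-46490965, plus strand), beside that of Acsl3 (chr1:78657765-78657824, plus strand). Cd36 (chr5:17835897-17835956, minus strand) differed most between the late libraries. Etfb (chr7:43444012-43444071, plus strand) and Ppara (chr15:85735716-85735775, plus strand) hold the letters of an NRF1 element, the binding motif of a regulator of nuclear genes for mitochondria, shown in capitals. Each is read from 5′ to 3′ on the gene's own strand and ends at the base before the RefSeq start, except the stretch shared by Hadha and Hadhb. None of the stretches overlaps an annotated GENCODE exon. The stretches of Cd36 and Ppara lie inside the GENCODE genes (chr5:17781690-17888801 and chr15:85734983-85802819), downstream of their outermost starts, which are not shown.
Hadha and Hadhb: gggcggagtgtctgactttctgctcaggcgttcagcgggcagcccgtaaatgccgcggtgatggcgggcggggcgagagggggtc
Acsl1, upstream start: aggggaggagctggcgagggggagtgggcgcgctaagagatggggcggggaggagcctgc
Acsl1, downstream start: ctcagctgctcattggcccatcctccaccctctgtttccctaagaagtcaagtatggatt
Acsl3: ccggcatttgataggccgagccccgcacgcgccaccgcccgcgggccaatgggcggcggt
Cd36: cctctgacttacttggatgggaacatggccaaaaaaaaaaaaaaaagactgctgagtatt
Etfb: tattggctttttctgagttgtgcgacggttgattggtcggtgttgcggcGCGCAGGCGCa
Ppara: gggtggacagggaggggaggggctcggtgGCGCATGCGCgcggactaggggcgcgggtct

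Exact letters were searched on both strands in windows of 250 bases before to 50 after the start. The NRF1 element, GCGCA and GCGC with any base between, was found for Etfb, Etfdh and Ppara, 3 of 28 genes or 10.7%, against 5.19% of all 27025 genes with a window. The PPAR direct repeat (AGGTCA, any base, AGGTCA), the ERR element (TCAAGGTCA) and the MEF2 core (CTA, any 4 bases, TAG) were found for 0 of the 28, against 0.048%, 0.466% and 4.23% of all genes. A gene with several RefSeq starts has several windows and counts once, and the 28 genes had 31 windows. The ERR element ends in the AGGTCA of which the PPAR motif holds a pair. These windows are short and matches are descriptions of letters only.

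The pathway stood far higher in late replicate 2 than in any other library, including late replicate 1. Summed over the 34 genes, the level was 10725 CPM in late replicate 2 but 1371 in late replicate 1, against fibroblast values of 1627 and 1648 CPM. The early libraries had 1497 and 1632 CPM. The 5 other libraries thus lay within a narrow range. Of the 33 genes tested, 30 were highest in late replicate 2, as were 21.2% of all genes tested, and Ucp3 was highest there too. The exceptions were Acsl3, Acsl4 and Cpt1a.

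**Figure D1:**
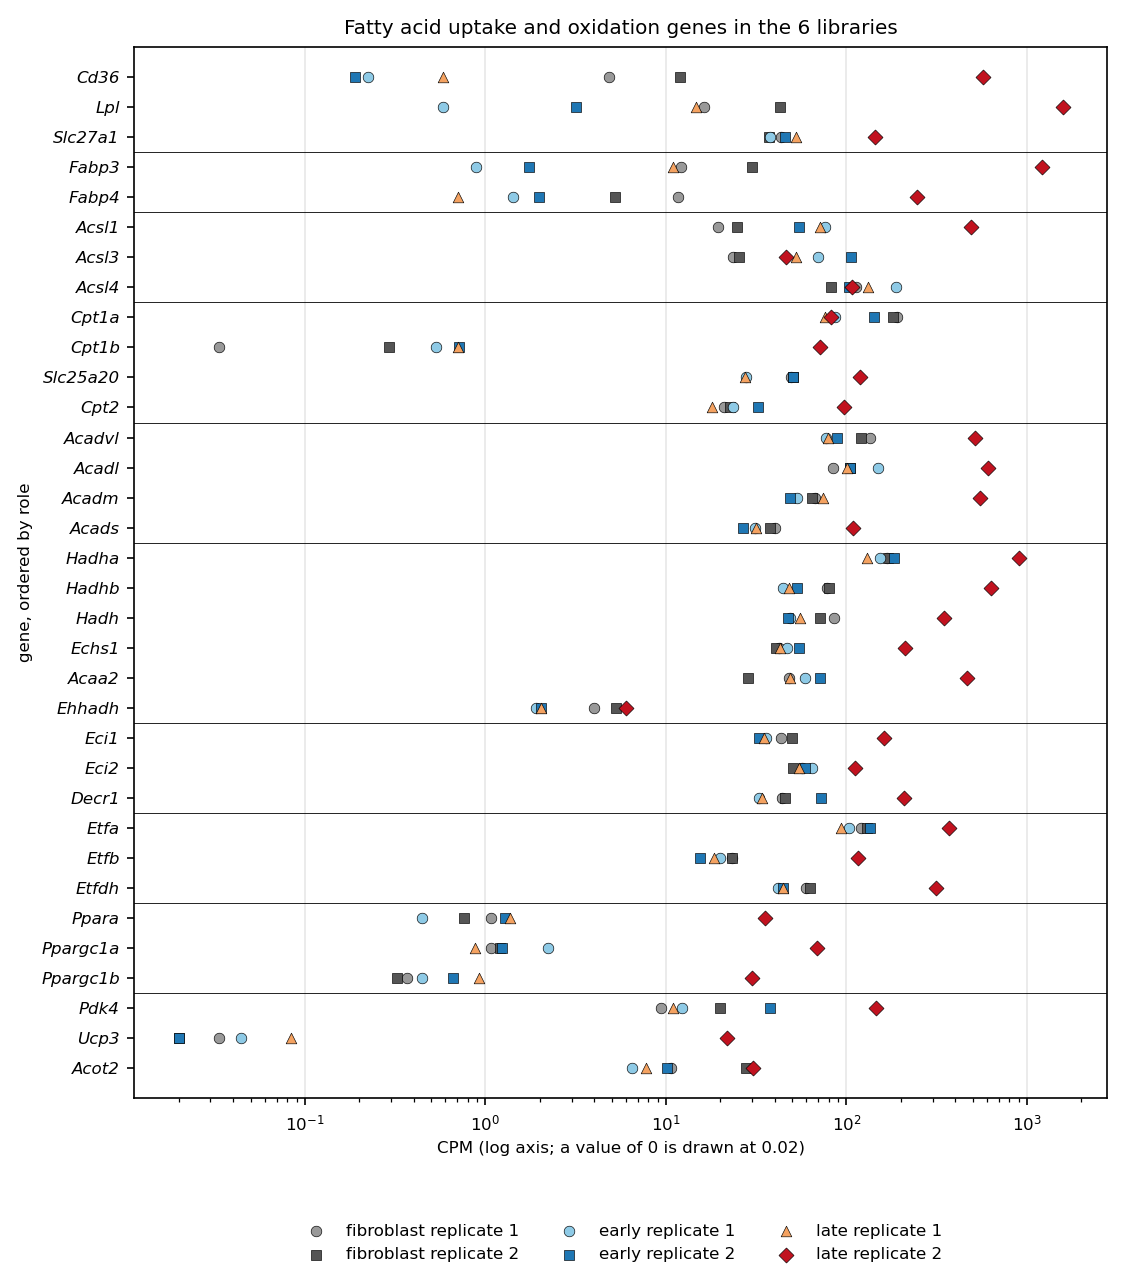
CPM of each of the 34 fatty acid genes (log axis) in the 2 fibroblast, 2 early and 2 late libraries, with genes ordered by role from uptake at the top to PPAR-responsive genes at the bottom. Late replicate 2 lies to the right of the other 5 libraries for all but Acsl3, Acsl4 and Cpt1a, and Cd36, Lpl, Fabp3 and Fabp4 lie lowest in the early libraries or in late replicate 1.

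Between the late libraries, 24 of the 33 genes tested were past 4-fold higher in replicate 2, measured as a difference of log2 CPM (prior count 2), and 0 were past 4-fold lower. Over all genes tested these shares were 8.35% higher and 3.39% lower. The median difference, replicate 2 minus replicate 1, was 2.64 for the fatty acid genes and -0.049 for all genes tested. With 1 library a side there is no test. The early pair was closer, with 1 gene past 4-fold higher in replicate 2 and 0 lower, against 5.11% and 2.77% of all genes tested. That gene was Lpl.

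**Figure D2:**
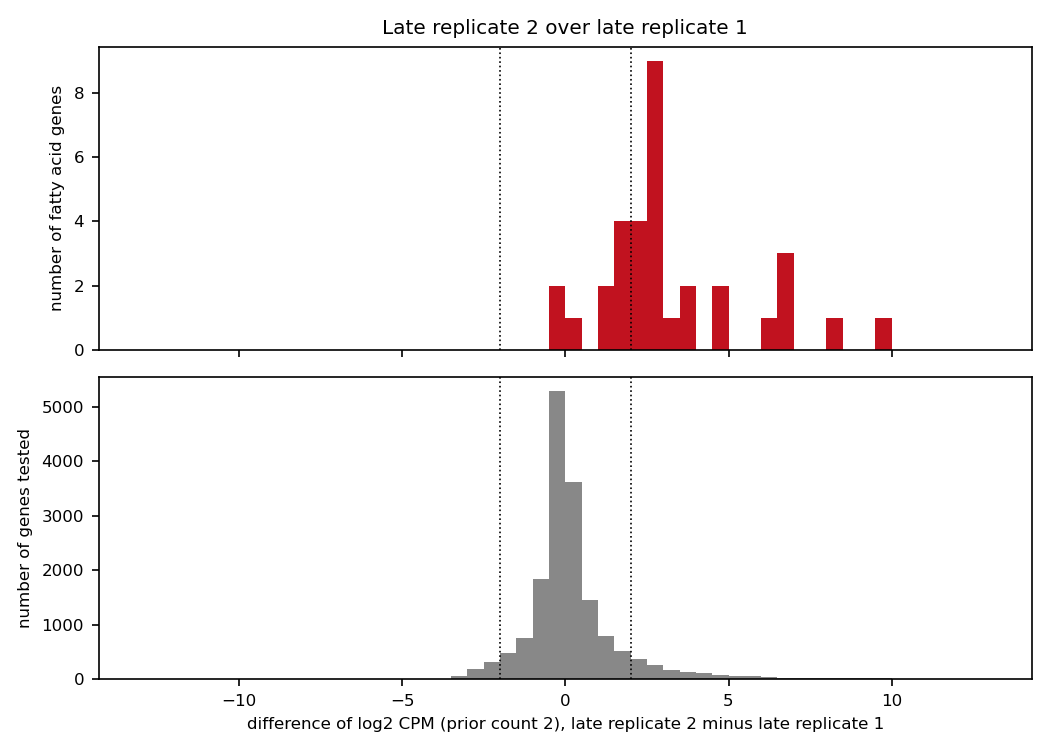
Histogram of the difference of log2 CPM (prior count 2), late replicate 2 minus late replicate 1, for the 33 fatty acid genes tested (top) and all 16688 genes tested (bottom), in bins 0.5 wide; dotted lines mark 4-fold. Most fatty acid genes lie beyond the right line, while all genes have a median of -0.049.

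In the 3-group comparison, no fatty acid gene passed the test. Late cells against fibroblasts gave 0 called of 33, where 1.42% of all genes tested were called (0.641% higher and 0.779% lower), and 10 at an unadjusted p under 0.05 (edgeR), where all genes gave 32.5%. DESeq2 called 11 of the 33, or 10 higher and 1 lower, where it called 28.1% of all genes. Those higher were Acsl1, Acsl3, Acadm, Acaa2, Fabp3, Lpl, Cpt1b, Ppara, Ppargc1a and Ppargc1b, and the lower was Cpt1a. The fitted change was positive for 30 of 33 genes, where 54.1% of all genes were positive, with a median log2 fold change of 1.55, against 0.11 over all genes. Without late replicate 2 the median was -0.38, with 12 of 33 positive. The libraries of late cells lay on the same side of both fibroblast libraries for 9 genes above, where all genes gave 35.7%, and for 1 below, where all genes gave 32.9%.

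Early cells against fibroblasts also gave 0 called of 33, where 1.53% of all genes were called (0.695% higher and 0.833% lower). At an unadjusted p under 0.05 (edgeR) there was 1, where all genes gave 29.8%. The spread of each gene is estimated over all 6 libraries, so the large spread between the late libraries enters this early count. The low count therefore does not show that these genes changed less than others in early cells. DESeq2 called 3, Acsl3 as higher and Fabp3 and Lpl as lower, where it called 25.2% of all genes. The fitted change was positive for 14 of 33, where 50.2% of all genes were positive, and the median log2 fold change was -0.095, against 0.0038 over all genes. Non-overlapping groups were counted for 10 genes above and 15 below, where all genes gave 32.3% and 34.4%. Late against early cells gave 0 of 33 and 0.0% of all genes, with 10 of 33 and 10.2% of all genes at an unadjusted p under 0.05, and DESeq2 called 8 of the 33, all higher, where it called 5.57% of all genes. The fitted change was positive for 30 of 33, where 47.1% of all genes were positive. The median there was 1.65, against -0.033 over all genes, and -0.069 without late replicate 2. Late and early libraries did not overlap for 10 genes above and 2 below, where all genes gave 16.1% and 17.6%. The late and early comparisons with fibroblasts share the same control libraries.

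To see each late library on its own, the other was left out. The single late library is then assumed to vary like the other groups, and the large spread between the late libraries no longer enters. Late replicate 2 alone against fibroblasts gave 21 genes that rose and 0 that fell of 33 (edgeR), where 3.4% of all genes rose and 1.1% fell. At an unadjusted p under 0.05 there were 30 of 33, where all genes gave 30.3%. Late replicate 1 alone gave 0 of 33, where 0.0419% of all genes rose and 0.0% fell, with 7 of 33 at an unadjusted p under 0.05, where all genes gave 26.3%. DESeq2 was not run on these reduced sets. Against early cells, 15 of 33 rose and 0 fell for late replicate 2 alone, where 2.37% and 0.03% of all genes did. The counts at an unadjusted p under 0.05 were 31 of 33, where all genes gave 19.6%. Late replicate 1 alone against early cells gave 0 of 33 (edgeR), where 0.0% of all genes were called, and 2 at an unadjusted p under 0.05, where all genes gave 5.82%. All calls named below for late replicate 2 rest on this fit.

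**Figure D3:**
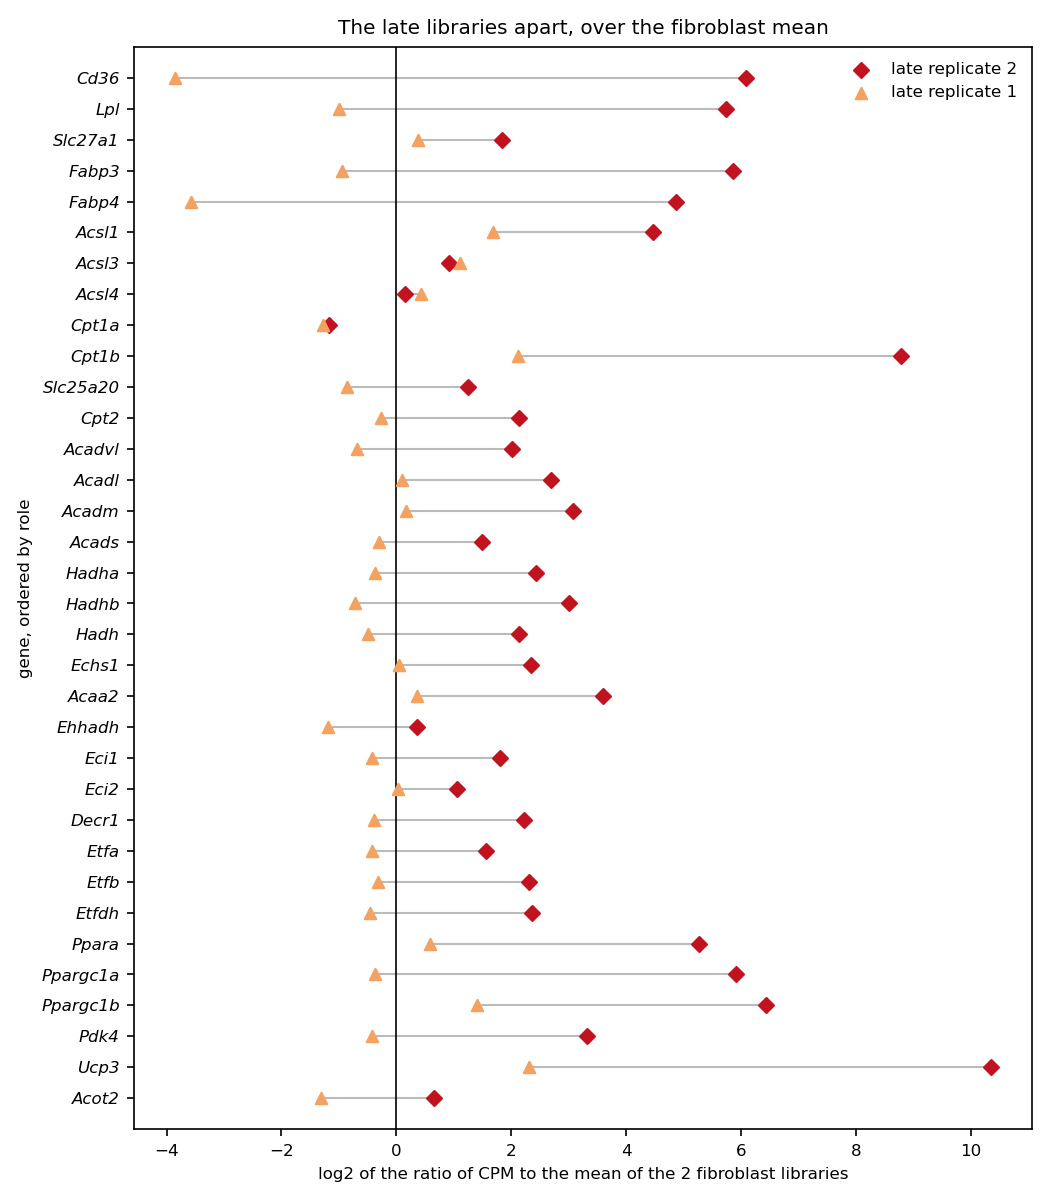
For each fatty acid gene, the log2 of the ratio of CPM to the mean of the 2 fibroblast libraries, for late replicate 2 (diamonds) and late replicate 1 (triangles), joined by a line. The vertical line at 0 is the fibroblast mean. Replicate 1 lies near or left of it for most genes and replicate 2 to its right for all but Cpt1a.

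Genes of uptake and binding had the widest range. Cd36, the fatty acid translocase of the plasma membrane, was at 572 CPM in late replicate 2 but 0.584 in late replicate 1, against fibroblast values of 4.87 and 11.9 CPM. In early cells it was at 0.223 and 0.189 CPM, against the same fibroblast values. Late replicate 1 and both early libraries thus lay below the fibroblasts, and late replicate 2 was 47.9 times the highest of the rest. The log2 fold change of early cells over fibroblasts was -5.32 ± 2.80 (SE, edgeR adjusted p = 0.265). With a late library left out of the fit, the early fall passed (edgeR): it was -5.29 ± 0.64 with an adjusted p of 0.0440 without late replicate 1, and -5.32 ± 0.74 with 0.0440 without late replicate 2. Cd36 was the 1 gene of 33 called lower in these fits, where 2.67% and 2.99% of all genes were. In the other settings tried, DESeq2 included, its adjusted p lay between 0.0692 and 0.648. Late replicate 2 alone gave 6.03 ± 0.60 over fibroblasts (adjusted p = 0.0358).

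Lpl, the lipase that frees fatty acids from circulating triglycerides, followed the same order. It was at 1579 CPM in late replicate 2 but 14.7 in late replicate 1, against fibroblast values of 16.2 and 42.8 CPM. Early cells had 0.579 and 3.17 CPM, below both fibroblast libraries (log2 fold change -3.98 ± 2.06, edgeR adjusted p = 0.258). Late replicate 2 alone gave 5.69 ± 1.10 over fibroblasts and did not pass (adjusted p = 0.0676). Slc27a1, the fatty acid transport protein of muscle and fat, varied little except in late replicate 2. It was at 145 and 52.3 CPM in late replicates 2 and 1, against 43.5 and 37.1 CPM in fibroblasts, while early cells had 37.9 and 45.4 CPM. It rose in late replicate 2 alone, by 1.78 ± 0.25 (adjusted p = 0.0438).

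Fabp3, the heart-type binding protein, was at 1218 CPM in late replicate 2 but 10.9 in late replicate 1, against fibroblast values of 12.1 and 30.1 CPM. In early cells it was at 0.891 and 1.75 CPM (log2 fold change over fibroblasts -3.99 ± 1.97, edgeR adjusted p = 0.239). Fabp4, the binding protein of fat cells, macrophages and capillary endothelium, was at 246 CPM in late replicate 2 but 0.709 in late replicate 1, against fibroblast values of 11.7 and 5.24 CPM. Early cells had 1.43 and 1.99 CPM. Per kilobase of transcript, Fabp3 stood at 1480 CPM and Fabp4 at 274 CPM in late replicate 2, while in fibroblast replicate 1 they were at 14.6 and 13.1 CPM per kilobase. The annotated exons of Fabp4 are longer together than its principal transcript, and over them Fabp4 stood at 54.8 in late replicate 2 and 2.61 in fibroblast replicate 1, with Fabp3 as before. In fibroblast replicate 2, Fabp3 was at 36.5 and Fabp4 at 5.84 CPM per kilobase of the principal transcript. The near-equal levels therefore hold for fibroblast replicate 1 and for the principal transcripts only. Both rose in late replicate 2 alone, by 5.80 ± 0.71 and 4.80 ± 0.56 on the log2 scale (adjusted p = 0.0397 and 0.0387).

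The fibroblast libraries themselves differed at these genes. Fibroblast replicate 2 was 2.45 times replicate 1 for Cd36, 2.64 times for Lpl, 2.49 times for Fabp3 and 0.447 times for Fabp4. Macrophages, which express Cd36, Lpl and Fabp4, had a summed marker level of 1260 CPM in fibroblast replicate 2 and 305 CPM in fibroblast replicate 1, with 12 of 12 markers higher in replicate 2. The markers thus lay on the same side as Cd36, Lpl and Fabp3 and on the opposite side from Fabp4. In early cells that sum was 115 and 51.1 CPM, most of it Cd14, with the defining markers Adgre1 and Ptprc at or below 0.0946 CPM and Csf1r at 1.43 and 2.08 CPM. In late replicates 2 and 1 it was 267 and 71.8 CPM, of which Cd14 gave 73.0 and 67.1 CPM. Adgre1, Csf1r and Ptprc were at 8.71, 29.9 and 3.88 CPM in late replicate 2. In late replicate 1 they were at 0.125, 1.33 and 0.0834 CPM. The 12 cardiomyocyte markers were also higher in fibroblast replicate 2, at 0.170% to 0.322% of their levels in late replicate 2. For Cd36, Lpl, Fabp3 and Fabp4 that share was 2.09% to 2.71%. The part of other cells in the fibroblast levels was not tested.

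Acsl1 and Acsl3, synthetases of the activation step, had higher values than fibroblasts in both early and both late libraries. Acsl1, the main acyl-CoA synthetase of heart, fat and liver, was at 76.1 and 54.6 CPM in early cells, against 19.3 and 24.8 CPM in fibroblasts (log2 fold change 1.57 ± 0.86, edgeR adjusted p = 0.280). Late replicates 2 and 1 had 488 and 71.0 CPM, against the same fibroblast values (3.66 ± 0.93, adjusted p = 0.0806). Late replicate 1 alone was 1.69 ± 0.32 above fibroblasts on the log2 scale without passing (adjusted p = 0.0920), and late replicate 2 alone rose by 4.41 ± 0.35 (adjusted p = 0.0297). All 4 activated libraries thus lay above both fibroblast libraries.

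Acsl3, a synthetase of the endoplasmic reticulum and lipid droplets, came nearest to a call in early cells. It was at 69.7 and 106 CPM there, against 23.4 and 25.4 CPM in fibroblasts (log2 fold change 1.85 ± 0.27, edgeR adjusted p = 0.0504). The call was made by DESeq2 (adjusted p = 5.52e-07). In edgeR it was made without a filter on low counts (adjusted p = 0.000762), with RLE scaling (0.0497) and without mitochondrial transcripts (0.0499). It was also made without late replicate 1 (0.0467) and without late replicate 2 (0.0469), where 2.41% and 2.67% of all genes were called higher. No call was made with the replicate block (0.0757), without fibroblast replicate 1 or 2 (0.224 and 0.257) or without early replicate 1 or 2 (0.0743 and 0.0510). Late replicates 2 and 1 had 46.3 and 52.8 CPM (1.02 ± 0.27 over fibroblasts, adjusted p = 0.0830), below both early libraries. Acsl4, which prefers polyunsaturated fatty acids, was at 187 and 103 CPM in early cells, against 112 and 82.3 CPM in fibroblasts, and the groups overlapped. In late replicates 2 and 1 it was at 108 and 132 CPM. Per kilobase, Acsl4 led the family in both fibroblast libraries at 21.3 and 15.6 CPM, while Acsl1 led in late replicate 2 at 125 CPM, beside 20.4 for Acsl4 and 11.7 for Acsl3. Over all annotated exons Acsl1 was at 46.6 there and Acsl4 at 19.9 CPM per kilobase.

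The isoforms of carnitine palmitoyltransferase 1, the gate of the shuttle, stood in another order in late replicate 2. Cpt1a, the carnitine palmitoyltransferase 1 of liver and most other tissues, was at 82.4 and 76.2 CPM in late replicates 2 and 1, against 190 and 182 CPM in fibroblasts (log2 fold change -1.23 ± 0.29, edgeR adjusted p = 0.0758). Early cells had 85.9 and 143 CPM (-0.70 ± 0.29, adjusted p = 0.178). It was the 1 gene of 33 for which all 4 activated libraries lay below both fibroblast libraries, where 23.8% of all genes tested did. The late call was made by DESeq2 (adjusted p = 0.00256), without a filter on low counts (0.0102) and without early replicate 1 or 2 (0.0439 and 0.0406). No call was made without fibroblast replicate 1 or 2 (0.278 and 0.322), without late replicate 1 or 2 (0.129 and 0.150), or under the other edgeR settings (0.0742 to 0.0946).

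Cpt1b, the muscle isoform, was at 71.7 CPM in late replicate 2 but 0.709 in late replicate 1, against fibroblast values of 0.0336 and 0.294 CPM, which held 11 counts between them. Early cells had 0.534 and 0.710 CPM. The ratio of late replicate 2 to the pooled fibroblast libraries was 416 (exact 95% counting interval 232 to 834), and to late replicate 1 it was 101 (63.1 to 174). Late replicate 2 alone gave 8.64 ± 1.0 over fibroblasts on a log2 scale (adjusted p in edgeR = 0.0384). Per kilobase of transcript, Cpt1b reached 24.8 CPM and Cpt1a 19.1 CPM in late replicate 2, and over all annotated exons 21.3 and 10.8. In the other 5 libraries, on the transcript scale, Cpt1b stayed at or below 0.245 CPM per kilobase while Cpt1a lay between 17.7 and 44.0.

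**Figure D4:**
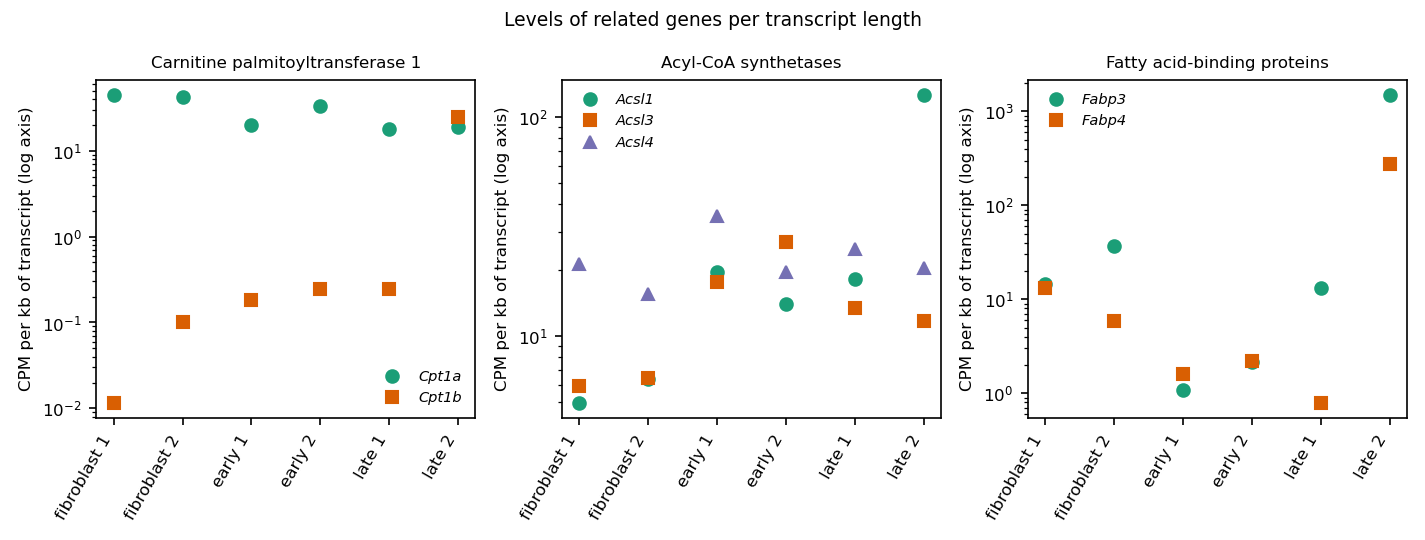
Levels per kilobase of the principal transcript (CPM per kb, log axis) of the carnitine palmitoyltransferase 1 genes, the acyl-CoA synthetases and the binding proteins in each library, in the order of days 0, 7 and 22. Cpt1b stands above Cpt1a and Acsl1 above Acsl4 in late replicate 2, while Acsl4 leads Acsl1 in the other 5 libraries.

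Slc25a20, the carnitine-acylcarnitine carrier of the inner membrane, was at 118 and 27.4 CPM in late replicates 2 and 1, against 49.4 and 50.4 CPM in fibroblasts. Early cells had 27.9 and 50.6 CPM. Cpt2, which reforms acyl-CoA inside the matrix, was at 96.3 and 18.1 CPM in late replicates 2 and 1, against 21 and 22.8 CPM in fibroblasts, while early cells had 23.6 and 32.2 CPM. Late replicate 1 lay below both fibroblast libraries for each of them, and Cpt2 rose in late replicate 2 alone, by 2.08 ± 0.28 (adjusted p = 0.0426).

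The enzymes inside the mitochondrion were higher together in late replicate 2. Over 17 genes of the inner membrane and matrix, from Slc25a20 and Cpt2 through the dehydrogenases to the electron transfer flavoprotein, the ratio of late replicate 2 to late replicate 1 ranged from 2.05 to 13.1 with a median of 6.08. The ratio of late replicate 2 to the fibroblast mean ranged from 2.08 to 12.1, and that of late replicate 1 to the fibroblast mean from 0.548 to 1.28. Early cells stayed between 0.613 and 1.70 times the fibroblast mean.

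Among the acyl-CoA dehydrogenases, which open each cycle, Acadm, the medium-chain enzyme, had the widest difference. It was at 548 and 73.9 CPM in late replicates 2 and 1, against 66.7 and 64.3 CPM in fibroblasts (log2 fold change 2.25 ± 0.88, edgeR adjusted p = 0.152). Early cells had 53.2 and 48.8 CPM, below both fibroblast libraries. Acadl, the long-chain enzyme, was at 606 and 100 CPM in late replicates 2 and 1, against 83.8 and 105 CPM in fibroblasts, while early cells had 150 and 105 CPM. Both rose in late replicate 2 alone, Acadm by 3.01 ± 0.24 and Acadl by 2.63 ± 0.35 (adjusted p = 0.0297 and 0.0424).

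Acadvl, the very-long-chain enzyme of the inner membrane, was at 513 and 79.2 CPM in late replicates 2 and 1, against 134 and 121 CPM in fibroblasts, while early cells had 77.3 and 88.8 CPM. Its exons share 42.9% of their length with Dvl2 on the opposite strand, and the strand setting of the counting is not given. Dvl2 stayed between 38.6 and 59.9 CPM in all 6 libraries, which does not settle how reads in the shared part were counted. Acads, the short-chain enzyme, was at 109 and 31.4 CPM in late replicates 2 and 1, against 40.1 and 37.9 CPM in fibroblasts. It had 31.1 and 26.8 CPM in early cells. Late replicate 1 and the early libraries lay below the fibroblasts for both genes, and late replicate 2 alone called Acadvl (1.95 ± 0.24, adjusted p = 0.0396) but not Acads (1.42 ± 0.25, adjusted p = 0.0577).

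The trifunctional protein carries out the later steps of the cycle on long chains. Hadha, its alpha subunit, was at 907 and 130 CPM in late replicates 2 and 1, against 169 and 169 CPM in fibroblasts, while early cells had 153 and 182 CPM. Hadhb, its beta subunit, was at 635 and 48.4 CPM in late replicates 2 and 1, against 78.5 and 80.0 CPM in fibroblasts, while early cells had 44.5 and 53.2 CPM. The genes on either side of the shared 85 bases thus moved in the same direction in late replicate 2, by 2.37 ± 0.26 and 2.95 ± 0.24 on a log2 scale (adjusted p in edgeR = 0.0379 and 0.0314). In early cells Hadhb lay below both fibroblast libraries and Hadha overlapped them. Per kilobase, Hadhb stood at 310 CPM and Hadha at 226 CPM in late replicate 2, and at 38.3 and 42.0 CPM in fibroblast replicate 1. Over the length of all annotated exons the order in late replicate 2 turned, with Hadhb at 96.4 and Hadha at 104 CPM per kilobase, and fibroblast replicate 1 had 11.9 and 19.3. Which subunit gene stood higher there is therefore not settled.

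The soluble matrix enzymes of the same steps act on shorter chains. Acaa2, a thiolase, was at 464 and 48.9 CPM in late replicates 2 and 1, against 48.2 and 28.4 CPM in fibroblasts. Early cells had 59.1 and 71.4 CPM. All 4 activated libraries thus lay above both fibroblast libraries, late replicate 1 by a narrow margin. Hadh, the hydroxyacyl-CoA dehydrogenase, was at 345 and 55.4 CPM in late replicates 2 and 1, against 85.5 and 71.0 CPM in fibroblasts, while early cells had 48.7 and 47.2 CPM. Echs1, the enoyl-CoA hydratase, was at 211 and 42.6 CPM in late replicates 2 and 1, against 42.5 and 40.5 CPM in fibroblasts, while early cells had 47.0 and 54.7 CPM. These 3 rose in late replicate 2 alone, by 3.54 ± 0.39, 2.08 ± 0.24 and 2.29 ± 0.22 (adjusted p between 0.0353 and 0.0381). Ehhadh, the bifunctional enzyme of peroxisomes, did not join them. It was at 5.98 and 2.04 CPM in late replicates 2 and 1, against 4.0 and 5.29 CPM in fibroblasts, while early cells had 1.92 and 2.03 CPM.

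Unsaturated chains need further enzymes to enter the cycle. Eci1, a mitochondrial enoyl-CoA isomerase, was at 162 and 34.8 CPM in late replicates 2 and 1, against 43.2 and 49.9 CPM in fibroblasts, while early cells had 36.0 and 32.6 CPM. Eci2, an isomerase of peroxisomes and mitochondria, was at 111 and 54.3 CPM in late replicates 2 and 1, against 56.4 and 50.5 CPM in fibroblasts, while early cells had 64.1 and 58.7 CPM. Decr1, the mitochondrial dienoyl-CoA reductase, was at 208 and 34.2 CPM in late replicates 2 and 1, against 44.2 and 45.5 CPM in fibroblasts. Its early libraries, 32.7 and 72.4 CPM, lay on either side of the fibroblasts. Eci1 alone of the 3 passed in late replicate 2 (1.74 ± 0.24, adjusted p = 0.0435).

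Electron transfer flavoprotein takes electrons from the dehydrogenases. Its alpha subunit gene Etfa was at 368 and 92.9 CPM in late replicates 2 and 1, against 121 and 129 CPM in fibroblasts, while early cells had 103 and 135 CPM. Its beta subunit gene Etfb was at 116 and 18.5 CPM in late replicates 2 and 1, against 23.3 and 23.2 CPM in fibroblasts, while early cells had 19.8 and 15.5 CPM. Etfdh, the oxidoreductase that passes the electrons to ubiquinone, was at 315 and 44.5 CPM in late replicates 2 and 1, against 59.9 and 63.2 CPM in fibroblasts, while early cells had 41.5 and 44.6 CPM. Of the 3, Etfb and Etfdh rose in late replicate 2 alone (2.26 ± 0.28 and 2.30 ± 0.21, adjusted p = 0.0392 and 0.0353). Of the Etfb exon length, 53.0% overlaps Gm45233 on the same strand, which stayed at or below 0.225 CPM. How the counting treated reads in the shared part is not given, so the low Gm45233 values do not settle the level of Etfb.

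The regulators were at or below 2.23 CPM outside late replicate 2. Ppara, the PPAR-alpha receptor, was at 35.4 and 1.38 CPM in late replicates 2 and 1, against 1.07 and 0.765 CPM in fibroblasts, while early cells had 0.445 and 1.28 CPM. Ppargc1a, which encodes PGC-1alpha, was at 68.7 and 0.875 CPM in late replicates 2 and 1, against 1.07 and 1.21 CPM in fibroblasts, while early cells had 2.23 and 1.23 CPM. Ppargc1b, which encodes PGC-1beta, was at 29.8 and 0.917 CPM in late replicates 2 and 1, against 0.369 and 0.324 CPM in fibroblasts. Early cells had 0.445 and 0.663 CPM, where early replicate 1 held 10 counts, against 11 in each of the deeper fibroblast libraries. All 3 rose in late replicate 2 alone, by 5.20 ± 0.73, 5.85 ± 0.51 and 6.35 ± 0.53 on a log2 scale (adjusted p in edgeR = 0.0448, 0.0334 and 0.0324), and Ppargc1b was above both fibroblast libraries in all 4 activated libraries.

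The last genes respond to PPAR-alpha. Pdk4, the kinase that turns off pyruvate dehydrogenase and so spares glucose, was at 145 and 10.9 CPM in late replicates 2 and 1, against 9.40 and 19.8 CPM in fibroblasts, while early cells had 12.3 and 37.6 CPM. Its spread within the fibroblast and early pairs, 2.11 and 3.05 times, was wide, and late replicate 2 alone did not pass (3.25 ± 0.78, edgeR adjusted p = 0.0913). Ucp3, the muscle uncoupling protein, had 780 counts or 21.9 CPM in late replicate 2 and 2 counts in late replicate 1, against 1 count over both fibroblast libraries and 1 over both early ones. It was left out of the test because a single library held it. Its ratio in late replicate 2 over the fibroblasts was 1397 (exact 95% counting interval 250 to 55250).

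Acot2, a mitochondrial acyl-CoA thioesterase, was at 30.3 and 7.75 CPM in late replicates 2 and 1, against 10.7 and 27.9 CPM in fibroblasts. In early cells it was at 6.50 and 10.1 CPM, below both fibroblast libraries. Acot1 is a near-identical copy, and how the counting split reads between them is not given. Acot1 itself was at 12.9 and 10.4 CPM in late replicates 2 and 1, against 1.95 and 0.765 CPM in fibroblasts, while early cells had 9.22 and 37.9 CPM. The values of Acot2 are therefore uncertain.

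All 4 activated libraries lay above both fibroblast libraries for 6 of the 33 genes tested, namely Acsl1, Acsl3, Cpt1b, Echs1, Acaa2 and Ppargc1b. Over all genes tested the share was 25.4%. The margin was narrow for Echs1 (42.6 CPM in late replicate 1, against 42.5 in fibroblast replicate 1). It was also narrow for Acaa2 (48.9 against 48.2 CPM in the same libraries). Ppargc1b had 10 counts in early replicate 1, against 11 in each of the deeper fibroblast libraries. Late replicate 1 lay below both fibroblast libraries for 20 of the 34 genes, above both for 11 and between them for 3. Those above include Echs1 and Acaa2, by the narrow margins just given, and Ucp3, which had 2 counts in late replicate 1. No share over all genes stands beside these counts, so they only describe the positions and are not read as a result about the pathway.

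Markers of heart muscle and of other cells moved with the fatty acid genes in late replicate 2. All 12 cardiomyocyte markers were highest there, with a sum of 55134 CPM in late replicate 2 but 86.7 in late replicate 1, against fibroblast values of 20.2 and 144 CPM, and 20.4 and 53.7 CPM in early cells. The defining markers Myh6, Tnnt2 and Tnni3 were at or below 62.8 CPM outside late replicate 2. All 10 endothelial markers were highest there too, with 933 and 38.7 CPM in late replicates 2 and 1, against 12.8 and 17.9 CPM in fibroblasts, while early cells had 15.3 and 11.3 CPM. Capillary endothelium expresses Cd36 and Fabp4.

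The adipocyte list summed to 126 and 11.8 CPM in late replicates 2 and 1, against 11.2 and 8.88 CPM in fibroblasts, while early cells had 11.3 and 14.4 CPM. Of its defining markers, Adipoq was at 9.04, Plin1 at 15.9 and Lep at 0.590 CPM in late replicate 2. Elsewhere they did not exceed 0.0946 CPM, with Adipoq at 0 counts in both fibroblast and both early libraries. All 6 red blood cell markers were highest in late replicate 2, with a sum of 1043 CPM there and of no more than 2.91 CPM elsewhere. Skeletal muscle markers summed to 1505 CPM there, of which Ckm, a gene that heart muscle also expresses, gave 1415 CPM. Of the 10 markers, 4 were highest in late replicate 2. Beside Ckm these were Acta1 (85.6 CPM), Tnni2 (3.62 CPM) and the defining marker Tnnt3 (1.32 CPM, against 1.21 in late replicate 1). Myh1 and Myh2 had no more than 10 counts in any library. Myh4 had 0 counts in late replicate 2, and Myod1, Myog and Tnnc2 had 0 counts in all 6 libraries. The fibroblast list summed to 3186 and 2605 CPM in late replicates 2 and 1, below the 4027 and 6234 CPM of the fibroblasts. Early cells had 2755 and 12273 CPM. The list did not move as a set. Its defining markers Col1a1 and Pdgfra lay below both fibroblast libraries in both late libraries, as did Col3a1, Thy1 and Fap. Postn lay above them in both, at 71.9 and 85.5 CPM against 0.638 and 1.68. Dcn, also defining, and Lum lay above them in late replicate 2 (232 and 53.4 CPM) and below them in late replicate 1. The part of each cell type in the fatty acid gene values was not tested.

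**Figure D5:**
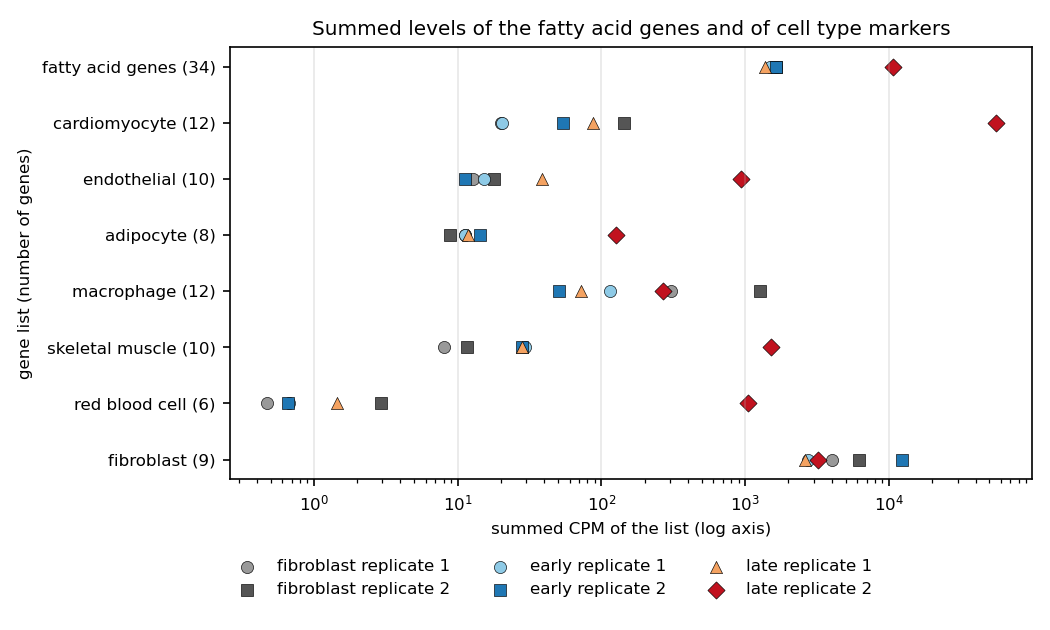
Summed CPM (log axis) of the 34 fatty acid genes and of 7 lists of cell type markers in each of the 6 libraries; the number of genes in a list is in brackets. Late replicate 2 stands to the right for the fatty acid, cardiomyocyte, endothelial, adipocyte, skeletal muscle and red blood cell lists, and fibroblast replicate 2 for the macrophage list.

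Neighbouring pathways were read from further lists, whose counts stand against the shares of all genes given above. These are 32.5% at an unadjusted p under 0.05 and 28.1% by DESeq2 in late cells against fibroblasts, and 29.8% and 25.2% in early cells. EdgeR called 1.42% in late and 1.53% in early cells, and the fitted change was positive for 54.1% and 50.2%. Of 16688 genes tested, 7737 were higher in late replicate 2 than in late replicate 1, and 8.35% were past 4-fold higher. The genes named for that 4-fold difference were chosen after their values were seen. Fatty acid synthesis genes had a positive fitted change in early cells for 10 of 11 tested, and Acaca was the 1 that rose by edgeR, while 6 had an unadjusted p under 0.05 and DESeq2 called 5 higher and 1 lower. It encodes the acetyl-CoA carboxylase that makes malonyl-CoA, the inhibitor of carnitine palmitoyltransferase 1. It was at 149 and 129 CPM in early cells, against 56.1 and 53.8 CPM in fibroblasts (log2 fold change 1.34 ± 0.19, edgeR adjusted p = 0.0472). In late replicates 2 and 1 it was at 88.1 and 94.3 CPM (0.73 ± 0.19 over fibroblasts, adjusted p = 0.0818), so that all 4 activated libraries lay above both fibroblast libraries. In the late comparison edgeR called 0 of 11 synthesis genes, with 4 at an unadjusted p under 0.05, and DESeq2 called 3 higher and 2 lower. Past 4-fold between the late libraries was Acacb, the carboxylase of the mitochondrial surface, at 253 and 3.67 CPM in late replicates 2 and 1, against 1.81 and 2.53 CPM in fibroblasts.

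Of 10 lipid storage genes, Plin2, a coat protein of lipid droplets, fell in both comparisons and no other was called by edgeR, where 1.53% of all genes were called in early and 1.42% in late cells. DESeq2 called 2 lower in early cells, and 3 higher and 2 lower in late cells. Plin2 was at 84.4 and 98.8 CPM in early cells, against 314 and 294 CPM in fibroblasts (-1.73 ± 0.21, adjusted p = 0.0408). In late replicates 2 and 1 it was at 73.3 and 64.1 CPM (-2.15 ± 0.21 against fibroblasts, adjusted p = 0.0349). The late libraries lay close together for Plin2, but all 10 storage genes were higher in late replicate 2 than in late replicate 1, with a median log2 difference of 1.85, and 5 were past 4-fold. Dgat2, which makes triglycerides, was at 179 and 7.46 CPM in late replicates 2 and 1, against 3.73 and 6.12 CPM in fibroblasts. Plin4, another droplet coat protein, was at 154 and 4.46 CPM in late replicates 2 and 1, against 7.69 and 9.74 CPM in fibroblasts. Mgll, the monoacylglycerol lipase, was at 116 and 7.75 CPM in late replicates 2 and 1, against 3.19 and 4.50 CPM in fibroblasts. The others were Pnpla2, the triglyceride lipase, and G0s2, its inhibitor.

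Of 5 ketone body genes, Bdh1, the hydroxybutyrate dehydrogenase, was the 1 called by edgeR, and it fell in early and in late cells. DESeq2 called 1 lower in early cells, and 1 higher and 1 lower in late cells. Bdh1 was at 1.47 and 0.946 CPM in early cells, against 28.2 and 34.6 CPM in fibroblasts (-4.69 ± 0.47, adjusted p = 0.0291). In late replicates 2 and 1 it was at 2.25 and 3.42 CPM (-3.47 ± 0.44 against fibroblasts, adjusted p = 0.0468). Both late and both early libraries thus lay below the fibroblasts. Past 4-fold between the late libraries was Acat1, a mitochondrial thiolase, at 342 and 73.4 CPM in late replicates 2 and 1, against 68.4 and 70.7 CPM in fibroblasts.

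Among 14 peroxisomal oxidation genes, Abcd2 and Ech1 were past 4-fold higher in late replicate 2 than in late replicate 1, and 12 had a negative fitted change in late cells against fibroblasts. EdgeR called 0 of the 14 there, with 1 at an unadjusted p under 0.05, and DESeq2 called 1. Ech1 was at 471 and 47.6 CPM in late replicates 2 and 1, against 57.5 and 61.2 CPM in fibroblasts. Abcd2 was at 6.21 and 1.0 CPM in late replicates 2 and 1, against 14.5 and 2.77 CPM in fibroblasts. Early cells had 2.27 and 16.2 CPM of Abcd2, so late replicate 2 was not its highest library. Hsd17b4, a multifunctional enzyme of the peroxisomal cycle, was at 133 and 119 CPM in late replicates 2 and 1, against 162 and 152 CPM in fibroblasts. Both late libraries thus lay below both fibroblast libraries.

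The remaining lists also had 0 called by edgeR in late cells against fibroblasts. Of 10 further uptake and carnitine genes, 3 had an unadjusted p under 0.05 and DESeq2 called 2, and Crat and Mlycd were past 4-fold between the late libraries. Acsl5, another synthetase, was at 84.8 and 84.5 CPM in late replicates 2 and 1, against 81.1 and 70.3 CPM in fibroblasts. Cpt1c, the brain isoform of carnitine palmitoyltransferase 1, was at 33.5 and 69.7 CPM in late replicates 2 and 1, against 108 and 96.8 CPM in fibroblasts. Late replicate 2 thus had the lower Cpt1c value of the late pair. Of 8 branched-chain and other acyl-CoA dehydrogenases, 1 had an unadjusted p under 0.05 and DESeq2 called 0, and Acad11 and Acad12 were past 4-fold between the late libraries. Ivd, which acts in leucine breakdown, was at 180 and 54.2 CPM in late replicates 2 and 1, against 64.5 and 60.7 CPM in fibroblasts. Acadsb, which acts on short branched chains, was at 95.6 and 89.7 CPM in late replicates 2 and 1, against 167 and 169 CPM in fibroblasts.

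Of 13 further regulators, 3 had an unadjusted p under 0.05 and DESeq2 called 4, shares near those of all genes. Rxra, the partner of PPAR receptors on DNA, was at 101 and 94.6 CPM in late replicates 2 and 1, against 151 and 166 CPM in fibroblasts. Ncor1, a corepressor of nuclear receptors, was at 258 and 264 CPM in late replicates 2 and 1, against 180 and 175 CPM in fibroblasts. For both genes the late libraries lay close together. Past 4-fold between them were Esrra, Esrrg and Lpin1, the first 2 of them nuclear receptors. Esrra was at 168 and 40.5 CPM in late replicates 2 and 1, against 66.0 and 65.7 CPM in fibroblasts. Esrrg was at 25.1 and 0.500 CPM in late replicates 2 and 1, against 0.235 and 0.853 CPM in fibroblasts. Lpin1, a phosphatidate phosphatase and coactivator, was at 167 and 32.1 CPM in late replicates 2 and 1, against 66.2 and 65.6 CPM in fibroblasts. Late replicate 1 lay between or below the fibroblasts for these 3.

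Of 9 genes of the pyruvate dehydrogenase switch and uncoupling, 2 had an unadjusted p under 0.05 and DESeq2 called 2, and Pdk2, Pdhb, Dlat and Ucp2 were past 4-fold between the late libraries. Pdha1, a subunit of pyruvate dehydrogenase, was at 763 and 241 CPM in late replicates 2 and 1, against 325 and 399 CPM in fibroblasts. Dlat, the acetyltransferase of that complex, was at 384 and 93.4 CPM in late replicates 2 and 1, against 119 and 118 CPM in fibroblasts, so that both enzymes of carbohydrate entry stood higher in late replicate 2 as well.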

How the data were processed

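Polyadenylated RNA of 6 mouse libraries, 2 a group, was sequenced, per the labels. The authors deposited raw counts of reads for each Ensembl gene, with no normalization. The submitters' processing notes name Trimmomatic 0.36, STAR 2.5.2b, featureCounts, Subread 1.5.2 and GRCm38; the sources used here give no strand setting, annotation release or handling of multi-mapping reads. Genes with close copies or overlapping neighbours therefore have uncertain counts. Columns were matched to samples by name.

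Symbols came from GENCODE M21, where 49056 of 49315 identifiers had one. Counts were tested with edgeR 4.0.16 (R 4.3.3; TMM, filterByExpr, robust quasi-likelihood, Benjamini-Hochberg over 16688 genes, 3 residual degrees of freedom), in a fit over all 6 libraries. The standard error is the log2 fold change divided by the square root of F. Levels per kilobase use the principal transcript. Ratios of low counts have exact 95% intervals. The fit was run on simulated counts in which every gene had the same dispersion and both late libraries were changed alike. Late libraries that differ from each other, and fits with a single late library, were not simulated.

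All 34 genes are named; of each neighbouring list, those called and otherwise the 2 of highest mean log2 CPM. A gene that this rule names is not reported here. The members and lists were chosen with earlier results of these data known. Alternatives were RLE scaling, scaling without mitochondrial transcripts, no filter on low counts, DESeq2 1.42.0, a replicate block, 2-fold for 4-fold between libraries, and leaving out each library.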

Additional observations from a re-analysis of the deposited data

Results flagged for a closer look

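Acadm, the medium-chain acyl-CoA dehydrogenase, was singled out because its late and early libraries lay on opposite sides of the fibroblasts. It was at 548 and 73.9 CPM in late replicates 2 and 1 and at 53.2 and 48.8 CPM in early cells, against 66.7 and 64.3 CPM in fibroblasts. The log2 fold change of late over early cells was 2.61 ± 0.90 (edgeR adjusted p = 0.446), so that the difference did not pass the test. Without late replicate 2 it was 0.54 on the same scale. The position of the libraries on either side of the fibroblasts was not tested by itself.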

How the results depend on the processing

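Each group had 2 libraries and the common biological coefficient of variation was 48.6%, which limits what the fit can call. Calls depended on the setting, and the cause was not tested. In early cells against fibroblasts, 255 genes were called by edgeR, 2337 with no filter on low counts, 4201 by DESeq2 and 0 to 944 when a library was left out. In late cells against fibroblasts, 237 were called, 2495 with no filter, 4683 by DESeq2 and 0 to 1132 with a library left out. Leaving out fibroblast replicate 1 or 2 gave 0 in both comparisons; without early replicate 1 early cells had 6, and without late replicate 2 late cells had 7. In late against early cells, 0 were called, 276 with no filter, 930 by DESeq2 and 0 to 401 with a library left out. Of the fatty acid genes, 1 was called higher in early cells under RLE scaling, without mitochondrial transcripts, with no filter and by DESeq2, which also called 2 lower; leaving out a library gave 0 to 1 in each direction. In late cells against fibroblasts, DESeq2 called 10 higher and 1 lower, no filter gave 1 lower, and leaving out a library gave 0 to 21 higher and 0 to 1 lower. In late against early cells, DESeq2 called 8 higher and leaving out a library gave 0 to 15. The fitted change was positive for 12 to 32 genes in late cells against fibroblasts and for 15 to 31 against early cells, with medians of -0.38 to 2.29 and of -0.069 to 2.47. Past 2-fold, 4 of 33 genes were higher in early replicate 2 than in early replicate 1, where 2299 of all 16688 genes tested were. Between the late libraries, 30 of 33 were past 2-fold higher in replicate 2, where 2691 of all 16688 genes tested were.

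Libraries of different groups share replicate numbers only: deviations of same-numbered libraries correlated with r = 0.12 in early and 0.24 in late against fibroblasts, and 0.086 in late against early cells. With the replicate block, 26 genes were called in early and 9 in late cells against fibroblasts, and 0 in late against early cells, none of them fatty acid genes; Decr1 had -0.0039 in early cells.

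Of 99 values of single fatty acid genes, 56 kept their sign in every setting and 43 turned in at least 1, none of these being called when turned. Ranges of the log2 fold change when a library was left out follow. In early cells against fibroblasts, the sign turned for Slc27a1 (-0.065 to 0.17), Slc25a20 (-0.79 to 0.021), Hadha (-0.097 to 0.11), Decr1 (-0.41 to 0.69), Etfa (-0.23 to 0.11), Ppara (-0.99 to 0.48) and Pdk4 (-0.19 to 1.41). In late cells against fibroblasts, the sign turned for Cd36 (-3.84 to 6.03), Lpl (-1.01 to 5.69), Fabp3 (-0.95 to 5.80), Fabp4 (-3.57 to 4.80), Slc25a20 (-0.87 to 1.19), Cpt2 (-0.27 to 2.08), Acadvl (-0.69 to 1.95), Acads (-0.31 to 1.42), Hadha (-0.38 to 2.37), Hadhb (-0.71 to 2.95), Hadh (-0.50 to 2.08), Ehhadh (-1.18 to 0.31), Eci1 (-0.42 to 1.74), Decr1 (-0.39 to 2.16), Etfa (-0.43 to 1.5), Etfb (-0.33 to 2.26), Etfdh (-0.47 to 2.30), Ppargc1a (-0.38 to 5.85), Pdk4 (-0.42 to 3.25) and Acot2 (-1.32 to 0.83). In late against early cells, the sign turned for Fabp4 (-1.26 to 7.09), Acsl4 (-0.70 to 0.21), Slc25a20 (-0.52 to 1.52), Cpt2 (-0.62 to 1.71), Acadvl (-0.069 to 2.54), Acadl (-0.34 to 2.16), Hadha (-0.36 to 2.36), Hadhb (-0.015 to 3.62), Echs1 (-0.25 to 1.97), Acaa2 (-0.42 to 2.75), Eci2 (-0.18 to 0.77), Decr1 (-0.62 to 1.91), Etfa (-0.36 to 1.55), Ppargc1a (-0.98 to 5.22), Pdk4 (-1.19 to 2.56) and Acot2 (-0.10 to 1.79).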
